A study of Mus musculus with 8 samples.

Results

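A panel of 38 genes known from astrocytes was followed in ribosome-associated RNA purified from midbrain dopaminergic neurons of mice. The genes were taken by symbol from the deposited count table, and all 38 were found among its 21761 genes. Serpina3n, Lcn2 and C4b were included as markers of reactive astrocytes. The remaining 35 are genes of resting astrocyte function, grouped below by role. RNA was obtained by translating ribosome affinity purification (TRAP), in which ribosomes carrying a tag are pulled down from one cell type. The counts are thus meant to stand for RNA on tagged ribosomes and not for total RNA. Markers of other cells and the nuclear RNA Malat1 were counted as well (given below). What part of the counts was on tagged ribosomes was not tested.

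All mice were of the C57BL/6 strain, and the labels give neither age nor sex. The MPTP group (4 libraries) received 1 intraperitoneal injection of MPTP-HCl a day for 5 days, at 30 mg/kg of free base, and the saline group (4 libraries) received saline on the same schedule. Tissue was taken 4 days after the last injection. MPTP is a neurotoxin that glia convert to a mitochondrial poison which dopaminergic neurons take up. The deposited counts carry SN (substantia nigra) in their name. The labels do not say which promoter drives the ribosome tag, how many animals went into a library, or whether tegmental neurons were included.

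Library totals ranged from 54192354 to 78892061 counts. One saline library, saline 3, stood apart from the other saline libraries over all genes tested, the astrocyte genes among them. On the first principal component of all tested genes (20.5% of the variance) it lay at -24.1, beside the MPTP libraries at -23.0 to -15.3 and away from saline 1, 2 and 4 at 26.9 to 38.9. The tyrosine hydroxylase gene Th, which marks the purified neurons, was at 1847 CPM (counts scaled to a common library size) in saline 3. It was at 1992 to 2708 CPM in MPTP and at 2744 to 3023 CPM in saline 1, 2 and 4. Log2 fold changes are therefore given below with all libraries and without saline 3.

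Astrocytes take up glutamate and GABA released at synapses, buffer potassium and water through channels and gap junctions, supply lipids and metabolites to neurons, and secrete matrix and lipid carrier proteins. After injury they become reactive, a state known for higher GFAP and for acute-phase proteins such as SERPINA3N, LCN2 and complement C4. In the MPTP model a glial reaction is known to accompany the loss of dopaminergic terminals and neurons. Several panel genes are not exclusive to astrocytes: Cst3 and Apoe are also expressed by microglia, and Clu, Sparcl1, Ndrg2, Aldoc, Glul and Slc1a2 have been reported in other neural cells.

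Levels were compared between genes per length, as CPM per kilobase of the union of annotated exons. The most abundant was Cst3, the secreted protease inhibitor cystatin C, at 245 ± 24.9 CPM per kb in saline (SD, n = 4), above 99.1% of the genes tested. Next came the glycolytic enzyme gene Aldoc (80.5 ± 14.2), Ndrg2, a gene of the NDRG family (77.6 ± 12.5), and glutamine synthetase, Glul (77.3 ± 21.7), whose ranges in saline overlapped. At the other end lay the complement gene C4b (0.184 ± 0.132 CPM per kb) and the thyroid hormone transporter gene Slco1c1 (0.269 ± 0.193). For scale, Th stood at 1121 ± 233 CPM per kb in the same libraries.

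Markers of astrocytes were spread over that order, with Glul and S100b (24.1 ± 10.2 CPM per kb) well above the genes that follow. Gfap, the astrocyte intermediate filament, was at 3.0 ± 1.09 CPM per kb in saline, the water channel gene Aqp4 at 1.89 ± 0.758, the folate enzyme gene Aldh1l1 at 0.767 ± 0.309, connexin 43, Gja1, at 0.761 ± 0.290 and the glutamate transporter gene Slc1a3 at 0.670 ± 0.154 (SD, n = 4 each). The median of all genes tested was 3.77 CPM per kb, and 13 of the 37 tested astrocyte genes were above it. The related transporter gene Slc1a2 was at 14.9 ± 0.809 CPM per kb, and its lowest saline library lay above the highest for Slc1a3. Of the 36 pairs of neighbours in the order, 31 had overlapping ranges over the 4 saline libraries, so most adjacent ranks do not differ beyond the spread. The gaps fell below Cst3, Glul, S100b, Slc1a2 and Apoe.

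**Figure D1:**
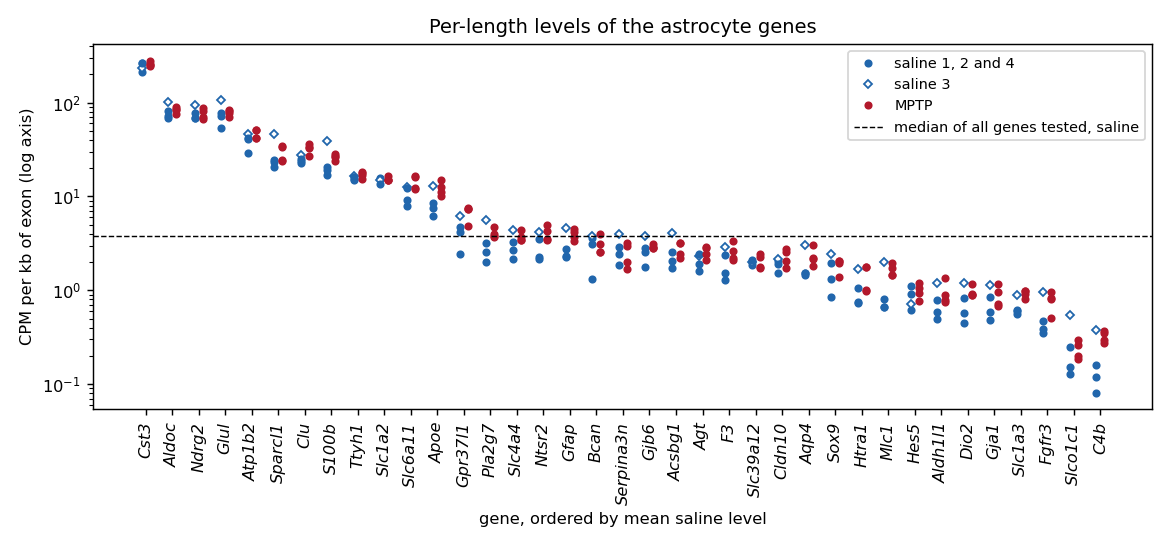
Level of each tested astrocyte gene in CPM per kb of exon (log axis), ordered by its mean in saline, with 1 point per library. Cst3 stands at the top at 245 and C4b at the bottom at 0.184, the dashed line marks the median of all genes tested (3.77), and the open diamond of saline 3 lies above the other saline points for 32 of the 37 genes.

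The comparison of MPTP with saline asks whether astrocyte RNA in the purified material differed after the toxin. With all 8 libraries no astrocyte gene passed the gene test: edgeR's quasi-likelihood test called 0 of 37 at a Benjamini-Hochberg adjusted p under 0.05, where 0.106% of all genes tested were called, and their adjusted p-values ran from 0.321 to 0.989. The adjusted values cover all 15999 genes tested. At an unadjusted p under 0.05, 5 astrocyte genes were higher and 0 lower, and 4.28% of all genes tested were higher by that criterion. DESeq2 also called 0 of the astrocyte genes, beside 0.332% of all its genes called. It had 7 astrocyte genes at an unadjusted p under 0.05, a threshold at which its share of all genes was not computed. No astrocyte gene had all MPTP libraries above all saline libraries, against 2.04% of all genes tested.

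Most genes had the same sign. The log2 fold change (MPTP minus saline) was above 0 in 34 of the 37 tested genes, beside 50.1% of all genes tested, and its median was 0.26, beside 0.00 for all genes tested. The 3 genes below 0 were Slco1c1 (-0.20), Serpina3n (-0.19) and Ndrg2 (-0.02). The genes share the same 8 libraries, so this count does not rest on 37 independent observations. Without saline 2, the library lowest in most of these genes, the median was 0.12. CPM are shares of a library, so more astrocyte RNA and a smaller share of neuronal RNA cannot be told apart. More cells and more RNA in each cell cannot be told apart in bulk samples either. The same holds for RNA of astrocytes and RNA of the tagged neurons themselves.

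Library by library, saline 3 lay with or above the MPTP libraries for most genes. It held the highest saline level for 32 of the 37 genes (86.5%), where 28.6% of all genes tested had their highest saline level in that library. For 17 genes (45.9%) it was the highest of all 8 libraries, against 13.9% of all genes tested, and for 18 (48.6%) it lay within the MPTP range, against 58.3%. It lay below every MPTP library for only Cst3 and Hes5. The median ratio of saline 3 to the mean of saline 1, 2 and 4 was 1.62 over the astrocyte genes and 0.986 over all genes tested. The median ratio of the MPTP mean to the same 3 libraries was 1.36 over the astrocyte genes and 1.00 over all genes tested. Both ratios share saline 1, 2 and 4 as their base.

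The remaining libraries also had an order. MPTP 2 was the highest MPTP library for 21 of the 37 genes, against 26.4% of all genes tested, and MPTP 1 and MPTP 4 were the lowest for 16 and 13. Saline 2 was the lowest of the 8 libraries for 24 genes, against 16.2% of all genes tested. The coefficient of variation had a median of 16.6% over the MPTP libraries and 33.1% over the saline libraries, and 19.9% over saline 1, 2 and 4.

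**Figure D2:**
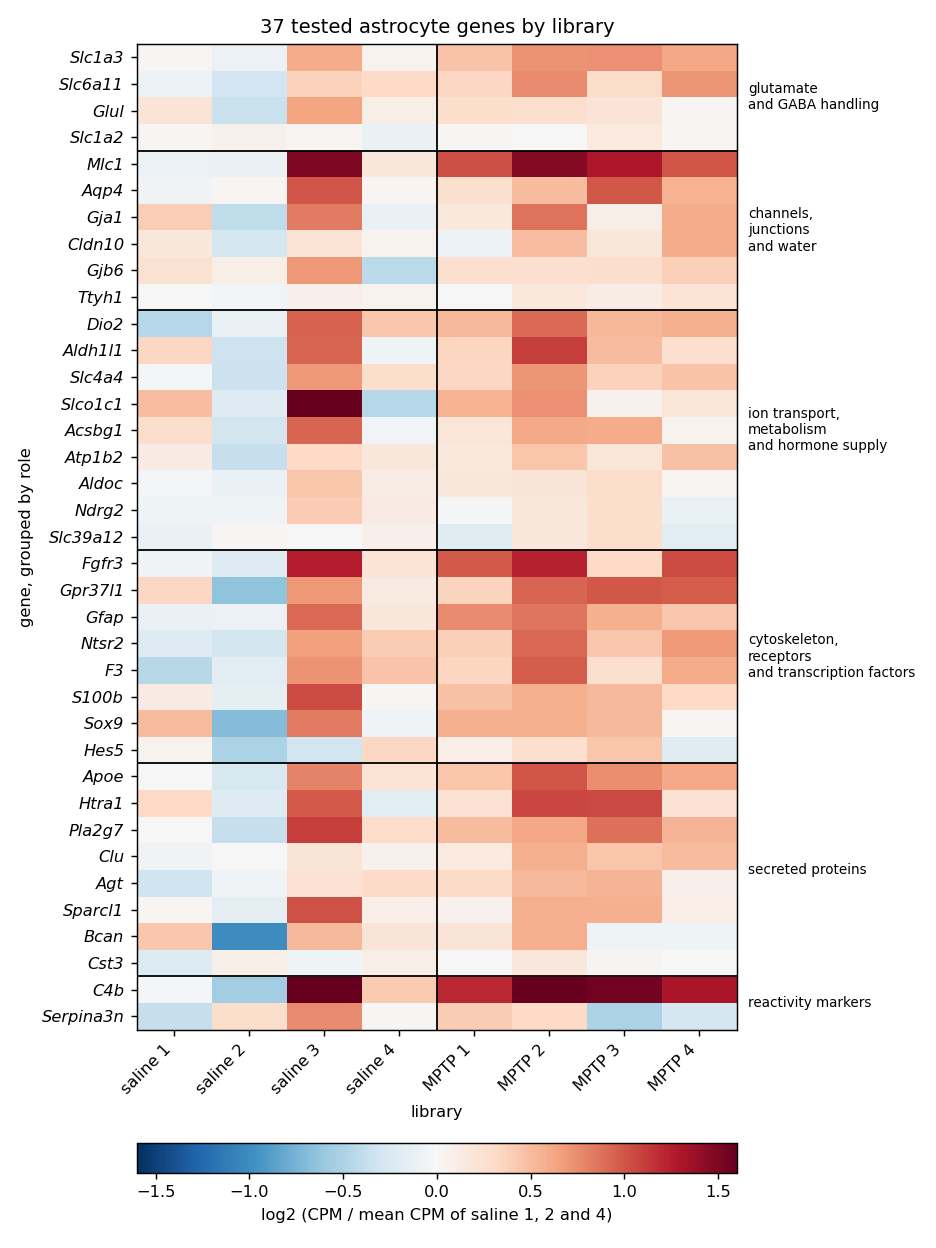
Log2 ratio of each tested astrocyte gene's CPM in each library to its mean in saline 1, 2 and 4, with genes in rows grouped by role and libraries in columns. The column of saline 3 is as red as the MPTP columns for most genes (median ratio 1.62 against 1.36), while Cst3, Hes5, Slc1a2 and Slc39a12 show no such rise there.

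Without saline 3, 5 of the 37 genes were called higher (adjusted p under 0.05 over the 16180 genes tested there) and 0 lower, beside 0.853% of all genes called higher. These were Apoe, Mlc1, Gfap, Clu and S100b. At an unadjusted p under 0.05, 21 were higher, beside 8.68% of all genes tested, and all 37 had a log2 fold change above 0, beside 51.2%. The median was 0.44, against 0.01 for all genes. In 14 genes (37.8%) every MPTP library lay above saline 1, 2 and 4, beside 7.22% of all genes tested. Leaving out the saline library with the highest values of a gene raises its fold change by construction, so these values describe the 7 libraries and are no second test.

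**Figure D3:**
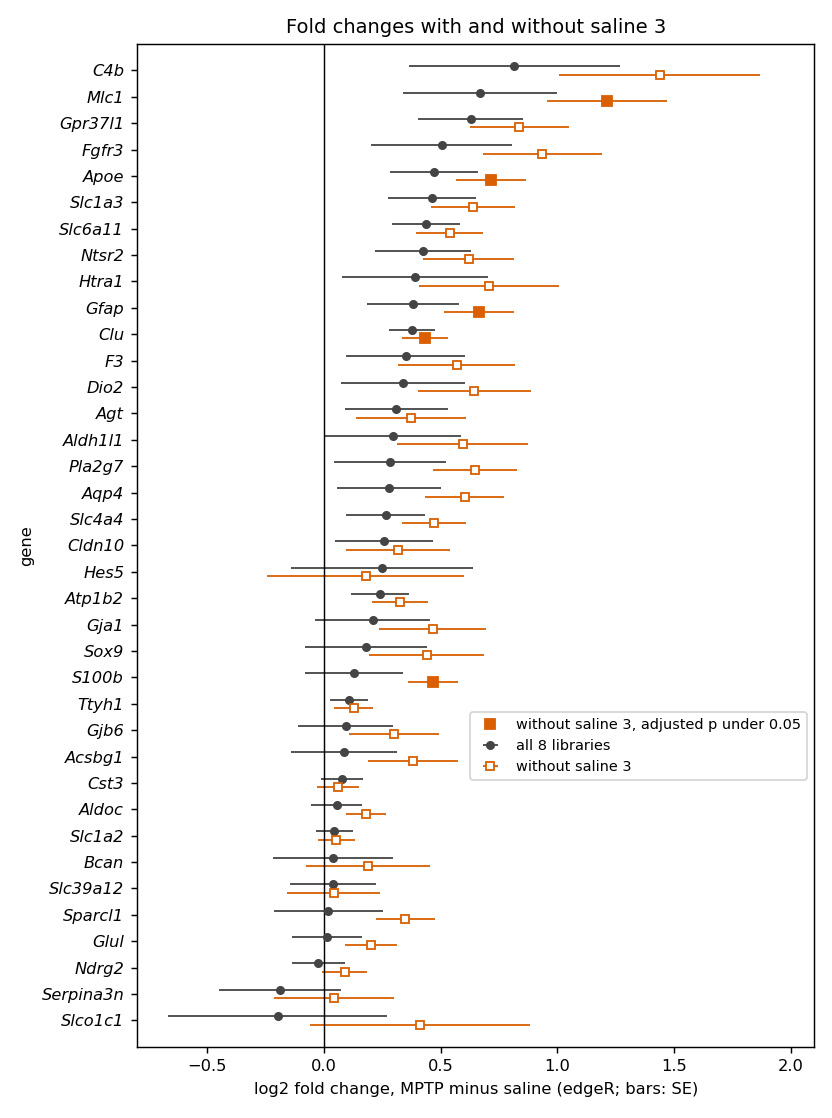
Log2 fold change of each tested astrocyte gene (x axis, MPTP minus saline, bars show the SE) with all 8 libraries (filled circles) and without saline 3 (squares, filled where the adjusted p was under 0.05). With 8 libraries 34 genes lie above 0 and none is called. Without saline 3 all 37 lie above 0, and Mlc1, Apoe, Gfap, Clu and S100b are called.

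The sequences before the start sites of panel genes are shown for Gfap and S100b, both called without saline 3, and for Slc1a3 and Agt, whose windows hold a match to the STAT motif, a sequence read by transcription factors of reactive astrocytes. Each is the 250 bases before the RefSeq start on GRCm38.p6, 5′ to 3′ on the gene's strand, with motif matches in capitals, and none overlaps a GENCODE exon. The RefSeq start of Gfap was matched to a GENCODE transcript, and those of S100b, Slc1a3 and Agt were not. The windows are chr11:102897201-102897450 (minus strand) for Gfap, chr10:76253586-76253835 (plus strand) for S100b, chr15:8710808-8711057 (minus strand) for Slc1a3 and chr8:124569707-124569956 (minus strand) for Agt.
Gfap: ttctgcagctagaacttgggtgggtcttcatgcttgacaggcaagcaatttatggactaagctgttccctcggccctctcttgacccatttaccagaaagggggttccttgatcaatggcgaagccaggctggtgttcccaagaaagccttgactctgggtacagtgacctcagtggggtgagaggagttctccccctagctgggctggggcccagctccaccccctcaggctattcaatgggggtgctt
S100b: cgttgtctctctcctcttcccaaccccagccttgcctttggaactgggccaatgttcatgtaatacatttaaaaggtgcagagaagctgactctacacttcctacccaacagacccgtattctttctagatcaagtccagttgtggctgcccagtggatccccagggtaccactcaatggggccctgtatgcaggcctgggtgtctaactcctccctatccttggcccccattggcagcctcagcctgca
Slc1a3: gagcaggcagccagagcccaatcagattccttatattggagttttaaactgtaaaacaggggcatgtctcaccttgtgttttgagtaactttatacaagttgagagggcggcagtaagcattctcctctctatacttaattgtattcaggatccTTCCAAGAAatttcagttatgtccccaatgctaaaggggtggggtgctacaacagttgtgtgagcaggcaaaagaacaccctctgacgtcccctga
Agt: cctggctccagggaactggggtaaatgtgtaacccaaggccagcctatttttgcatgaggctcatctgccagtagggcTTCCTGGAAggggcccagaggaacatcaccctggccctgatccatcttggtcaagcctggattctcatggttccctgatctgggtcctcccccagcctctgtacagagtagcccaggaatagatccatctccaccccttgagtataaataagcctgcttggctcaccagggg

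RefSeq windows were matched for 32 of the 38 genes, with 40 windows in all. The STAT motif TTCNNNGAA, which reads the same on both strands, was in 15% of these windows and in 7.02% of all 32851 windows of the same length. Its 6 genes were Acsbg1, Agt, Aldoc, Ntsr2, Pla2g7 and Slc1a3. The AP-1 motif TGANTCA, searched on both strands, was in 5% of the windows (F3 and Gja1) and in 6.75% of all windows. The palindromic NFI motif was in none of them and in 0.703% of all windows. No window of these genes held matches to more than 1 kind of motif. The F3 window held 2 AP-1 matches, and 1 of the 2 Aldoc windows held 2 STAT matches. A match describes the letters only.

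Among the genes of the cytoskeleton, receptors and transcription factors, Gfap was at 17.6, 18.8, 15.5 and 14.0 CPM in MPTP 1 to 4 and at 9.66, 9.77, 19.4 and 11.8 CPM in saline 1 to 4. Saline 3 was above all MPTP libraries, and the other saline libraries were below all of them. The MPTP mean was 16.5 ± 2.16 CPM and the saline mean 12.6 ± 4.61 CPM (SD, n = 4 each). On the log2 scale the difference was 0.38 (SE 0.20, adjusted p = 0.604 by edgeR). Without saline 3 the log2 fold change of Gfap was 0.66 (SE 0.15, adjusted p = 0.0341 by edgeR).

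S100b, a calcium-binding protein of astrocytes and some oligodendrocytes, had the same layout at a higher level. Its CPM were 39.0, 41.8, 40.5 and 35.3 in MPTP 1 to 4 and 30.9, 25.3, 58.2 and 28.7 in saline 1 to 4. The groups overlapped only through saline 3. MPTP minus saline was 0.13 on the log2 scale (adjusted p = 0.897 by edgeR) with all libraries and 0.47 (SE 0.11, adjusted p = 0.0360 by edgeR) without saline 3.

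Of the receptor genes, Gpr37l1, which encodes an orphan G protein-coupled receptor, was at 11.1, 16.5, 17.3 and 16.9 CPM in MPTP 1 to 4 and at 10.8, 5.55, 14.0 and 9.57 CPM in saline 1 to 4. MPTP 1 lay close to saline 1, and saline 3 between MPTP 1 and the other MPTP libraries. Its log2 fold change was 0.63 (SE 0.22, unadjusted p = 0.0124, adjusted p = 0.449 by edgeR), and 0.84 without saline 3 (adjusted p = 0.0554). The growth factor receptor gene Fgfr3 had 0.50 with all libraries and 0.94 without saline 3, the neurotensin receptor gene Ntsr2 0.42 and 0.62, and the tissue factor gene F3 0.35 and 0.57, none of them called either way.

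Neither transcription factor gene separated the groups. Sox9, a factor of glial specification, was between 5.79 and 8.47 CPM in MPTP and between 3.51 and 10.1 CPM in saline, with a log2 fold change of 0.18 and of 0.44 without saline 3. Hes5, a Notch target, was between 1.05 and 1.63 CPM in MPTP and between 0.838 and 1.5 CPM in saline, and it was 1 of the 2 genes whose level in saline 3 (0.968 CPM) was below every MPTP library. Its log2 fold change was 0.25, and 0.18 without saline 3. The gene Gm20421 on the other strand covers 31.8% of the Hes5 exons. The libraries were made by an unstranded kit, so its reads there cannot be told apart from those of Hes5. The same limit holds for smaller overlaps with genes on the other strand. The largest of these covered 13.9% of the exons of Fgfr3, 11.0% of those of Aldh1l1 and 11.0% of those of Pla2g7.

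Of the secreted proteins, Clu had the smallest p-value of the panel with all 8 libraries. Clu encodes clusterin, an extracellular chaperone and lipoprotein component. It was at 91.7, 123, 112 and 117 CPM in MPTP 1 to 4 and at 78.7, 81.9, 94.9 and 85.9 CPM in saline 1 to 4. Only MPTP 1 and saline 3 crossed, so that 3 MPTP libraries were above every saline library. The log2 fold change was 0.38 (SE 0.10, unadjusted p = 0.00144, adjusted p = 0.321 by edgeR), and 0.43 without saline 3 (adjusted p = 0.0356 by edgeR). Unlike Gfap or S100b, Clu in saline 3 was only 1.16 times its mean in the other saline libraries.

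Apoe, the main lipid carrier of the brain, was at 21.5, 31.9, 26.6 and 24.1 CPM in MPTP 1 to 4 and at 15.9, 13.2, 27.5 and 18.4 CPM in saline 1 to 4. Saline 3 was exceeded only by MPTP 2. The log2 fold change was 0.47 (SE 0.19, unadjusted p = 0.0223, adjusted p = 0.492 by edgeR), and 0.72 without saline 3 (SE 0.15, adjusted p = 0.0265 by edgeR), the smallest adjusted p of the panel there.

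Other secreted proteins covered the full range of behaviour. Sparcl1, a matrix protein that promotes synapse formation, was at 136 CPM in saline 3, 61.1 to 72.3 CPM in saline 1, 2 and 4 and 70.8 to 100.4 CPM in MPTP, and its log2 fold change went from 0.02 to 0.35 without saline 3. Cst3 was nearly level, at 314 to 355 CPM in MPTP and 270 to 336 CPM in saline, with a log2 fold change of 0.08, and 0.06 without saline 3. The phospholipase gene Pla2g7 (0.28, and 0.65 without saline 3), the protease gene Htra1 (0.39 and 0.71), angiotensinogen, Agt (0.31 and 0.37), and the proteoglycan brevican, Bcan (0.04 and 0.19), were not called either way.

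Of the genes of channels, junctions and water balance, only Mlc1 was called without saline 3. It encodes a membrane protein of perivascular astrocyte endfeet. Its CPM were 4.09, 5.52, 4.89 and 4.03 in MPTP 1 to 4 and 1.88, 1.85, 5.65 and 2.26 in saline 1 to 4. Each MPTP library was well above saline 1, 2 and 4, and saline 3 was above them all. The log2 fold change was 0.67 (SE 0.33, adjusted p = 0.588 by edgeR) with all libraries and 1.21 (SE 0.26, adjusted p = 0.0271 by edgeR) without saline 3, the largest among the 5 genes called there.

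Aqp4 had the same layout, with 18.8 CPM in saline 3, 9.02 to 9.62 CPM in saline 1, 2 and 4 and 11.3 to 18.7 CPM in MPTP. Its log2 fold change was 0.28 (adjusted p = 0.753 by edgeR) and 0.60 without saline 3 (adjusted p = 0.0792), so it was not called. The astrocyte connexins Gja1 and Gjb6 had log2 fold changes of 0.21 and 0.09, and 0.47 and 0.30 without saline 3. The claudin gene Cldn10 (0.26 and 0.32) and the chloride channel gene Ttyh1 (0.11 and 0.13) were not called either way.

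**Figure D4:**
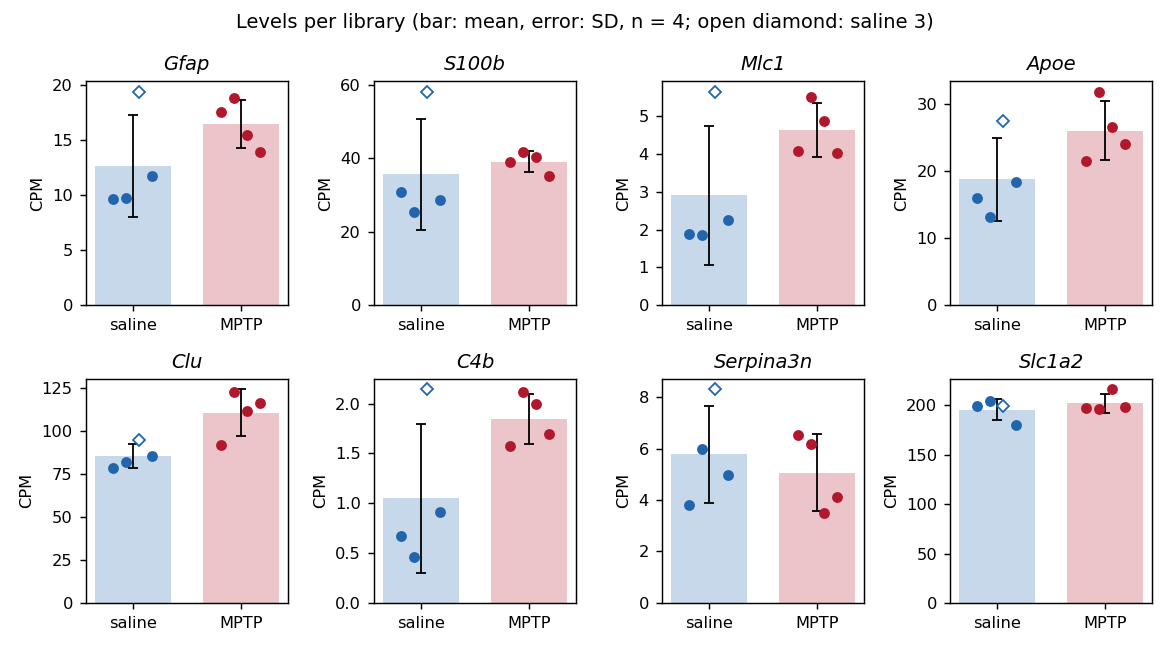
CPM of 8 astrocyte genes in each library, with bars for the mean and error bars for the SD (n = 4 per group). For Gfap, S100b, Mlc1, C4b and Serpina3n the open diamond of saline 3 lies above every MPTP point, whereas Slc1a2 spans 180 to 216 CPM over all 8 libraries.

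In glutamate and GABA handling the transporter genes differed in layout. Slc1a3 was at 6.98, 8.36, 8.42 and 7.79 CPM in MPTP 1 to 4 and at 5.17, 4.76, 7.67 and 5.29 CPM in saline 1 to 4, and the log2 difference was 0.46 (SE 0.19, unadjusted p = 0.0252, adjusted p = 0.506 by edgeR). Slc1a2 was at 197, 196, 216 and 199 CPM in MPTP 1 to 4 and at 199, 205, 199 and 180 CPM in saline 1 to 4, and the log2 difference was 0.05 (adjusted p = 0.903 by edgeR). The groups overlapped almost fully for Slc1a2, and saline 3 was no different from its group (1.02 times the other saline libraries, against 1.51 times for Slc1a3). Without saline 3 the log2 fold change was 0.64 for Slc1a3 (adjusted p = 0.0798 by edgeR) and 0.05 for Slc1a2. The difference between the 2 genes was not tested.

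The GABA transporter gene Slc6a11 was at 62.5, 83.8, 60.9 and 81.5 CPM in MPTP 1 to 4 and at 46.7, 40.4, 64.1 and 62.2 CPM in saline 1 to 4. MPTP 2 and 4 were above every saline library, and MPTP 1 and 3 lay beside saline 3 and 4. Its difference was 0.44 (SE 0.15, unadjusted p = 0.00842, adjusted p = 0.415 by edgeR) and 0.54 without saline 3 (adjusted p = 0.0667). Glul had a log2 fold change of 0.01 (0.20 without saline 3), and its highest library was saline 3 at 351 CPM, against 231 to 274 CPM in MPTP.

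Genes of ion transport, metabolism and hormone supply had a median log2 fold change of 0.09 over 9 genes and 0.38 without saline 3, and none was called either way. The bicarbonate cotransporter gene Slc4a4 (0.27, and 0.47 without saline 3), the sodium pump subunit gene Atp1b2 (0.24 and 0.33), the deiodinase gene Dio2 (0.34 and 0.64) and Aldh1l1 (0.30 and 0.59) were above 0 with all libraries. The values were 0.06 and 0.18 for Aldoc, 0.09 and 0.38 for the fatty acid enzyme gene Acsbg1 and 0.04 and 0.04 for the zinc transporter gene Slc39a12. Slco1c1, which rests on 35 to 179 counts per library, and Ndrg2 were the genes of this group below 0 with all libraries, and both were above 0 without saline 3 (0.41 and 0.09).

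The reactivity markers differed from each other. C4b, a complement component, was at 1.57, 2.12, 2.0 and 1.70 CPM in MPTP 1 to 4 and at 0.673, 0.464, 2.14 and 0.913 CPM in saline 1 to 4. Saline 3 was above every MPTP library, and the other saline libraries were below all of them. Its log2 difference, 0.82 (SE 0.45, adjusted p = 0.628 by edgeR), was the largest of the panel, and it was 1.44 without saline 3 (adjusted p = 0.0935). C4b rests on 31 to 153 counts per library and has a near-identical neighbour, C4a, so its count is uncertain.

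Serpina3n, an acute-phase protease inhibitor, was at 6.52, 6.17, 3.48 and 4.11 CPM in MPTP 1 to 4 and at 3.82, 5.98, 8.30 and 4.98 CPM in saline 1 to 4. Saline 3 was above every MPTP library, and the other saline libraries lay within the MPTP range. The log2 fold change of Serpina3n was -0.19 (SE 0.26, adjusted p = 0.876 by edgeR) and 0.04 without saline 3. It belongs to a cluster of closely related genes, which makes its count uncertain too. Lcn2, lipocalin 2, had 1, 6, 21 and 1 counts in MPTP 1 to 4 and 9, 0, 0 and 0 counts in saline 1 to 4. It was the 1 gene of the panel removed as too low, and at this depth no difference in Lcn2 was detectable.

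The less abundant genes had the larger fold changes. The 12 genes with the highest per-length level in saline had a median log2 fold change of 0.09 and the 12 lowest a median of 0.32. Without saline 3 these medians were 0.26 and 0.62. Over the 37 genes Spearman's rho between a per-length level and the log2 fold change without saline 3 was -0.42. That level was the MPTP mean plus the saline mean, with saline 3 included. This is a description of genes that share the same libraries, and low genes also have the larger errors.

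A list of other astrocyte genes was examined beside the panel. Of 48 further astrocyte genes, all tested, 39 were above 0 with a median log2 fold change of 0.24. None was called by edgeR in either direction, beside 0.106% of all genes tested. At an unadjusted p under 0.05, 6 were higher and 2 lower, and 4.28% of all genes tested were higher by that criterion. The share of all genes that were lower by it was not computed. Without saline 3, 42 were above 0 with a median of 0.36. Their summed level overlapped, at 695 to 747 CPM in MPTP, 692 to 735 CPM in saline 1, 2 and 4 and 813 CPM in saline 3. A large part of that sum was 1 gene of the opposite direction, Lix1. It was at 162 to 201 CPM in MPTP, 259 to 325 CPM in saline 1, 2 and 4 and 197 CPM in saline 3. The sum therefore does not describe the other genes of the list. The smallest p-values included both directions. Lix1 had a log2 fold change of -0.54 (adjusted p = 0.249 by edgeR) and the NMDA receptor subunit gene Grin2c -0.71 (adjusted p = 0.321; -0.75 without saline 3), while the cytochrome P450 gene Cyp4f15 had 0.58 (adjusted p = 0.451; 0.69 without saline 3) and the fatty acid elongase gene Elovl2 0.52 (adjusted p = 0.487; 0.60 without saline 3). Lix1 and Grin2c were the 2 genes of this list called by DESeq2, with adjusted p-values of 0.0109 and 0.0404, beside 0.332% of all its genes. Without saline 3 edgeR called 2 higher, the potassium channel gene Kcnj10 (log2 fold change 0.54) and Daam2 (0.56), both named after their values were seen, and 1 lower, Lix1 (-0.66). Of all genes tested there, 0.853% were called higher and 0.983% lower.

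In the wider list of reactive astrocyte genes, signs were mixed. Of 36 genes 32 were tested, 14 above 0 and 18 below, with a median log2 fold change of -0.07, and 0 were called by edgeR or by DESeq2. Over all genes tested edgeR called 0.106%, and DESeq2 called 0.332% of its genes. By edgeR 3 were higher and 1 lower at an unadjusted p under 0.05, where 4.28% of all genes tested were higher. The share of all genes that were lower was not computed. Without saline 3 the median turned to 0.06, with 18 of 33 above 0. The histocompatibility gene H2-D1 was at 17.2, 16.1, 16.5 and 15.7 CPM in MPTP 1 to 4 and at 11.7, 9.89, 14.0 and 9.68 CPM in saline 1 to 4. Its MPTP libraries lay above all its saline libraries, as in 2.04% of all genes tested. MPTP minus saline gave 0.53 on the log2 scale (SE 0.14, adjusted p = 0.321 by edgeR) and 0.65 without saline 3 (adjusted p = 0.0263). H2-D1 has near-identical relatives, so its count is uncertain. The complement inhibitor gene Serping1 had 0.70 (adjusted p = 0.519), the intermediate filament gene nestin, Nes, -1.68 (adjusted p = 0.504) and Cd14 2.33 (adjusted p = 0.523). Nes and Cd14 were under 1 CPM in every library. Without saline 3 the values were 0.84 for Serping1, -1.76 for Nes and 1.92 for Cd14, none of them called.

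Markers of other cells were summed by library as well, and their part in the result was not tested. Within the MPTP group the sums did not share an order. MPTP 1 was the lowest for the astrocyte genes (2056 CPM) and the highest for the endothelial and mural markers (51.4 CPM). The summed level of the 38 astrocyte genes was 2056 to 2333 CPM in MPTP, 1736 to 2001 CPM in saline 1, 2 and 4 and 2439 CPM in saline 3. A large part of that sum was Cst3, Aldoc, Ndrg2, Glul and Slc1a2, each at a mean of 202 to 327 CPM in MPTP. These are named above as not exclusive to astrocytes, and the sum does not describe the less abundant genes. For 24 oligodendrocyte markers the summed level was 1538 to 1751 CPM, 1071 to 1280 CPM and 2218 CPM in the same order. For 20 microglia markers it was 74.7 to 85.0 CPM, 61.5 to 75.5 CPM and 80.1 CPM, and for 17 endothelial and mural markers 40.0 to 51.4 CPM, 34.3 to 42.8 CPM and 55.3 CPM. For 19 dopaminergic neuron markers the order was inverted, with 10489 to 12454 CPM, 14402 to 15405 CPM and 9361 CPM. None of these markers was at 0 in every library. Malat1, an RNA kept in the nucleus, was at 2194 CPM in saline 3, at 475 to 945 CPM in saline 1, 2 and 4 and at 1049 to 1745 CPM in MPTP.

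Gene counts and sums did not always have the same direction. Of the oligodendrocyte markers 23 of 24 were above 0 (median log2 fold change 0.22), and saline 3 was the highest saline library for all 24. Without saline 3 all 24 were above 0 (median 0.50) and 10 were called higher, beside 0.853% of all genes, among them Galnt6 (1.01) and Fa2h (0.58). Of the microglia markers 14 of 20 were above 0 (median 0.38), and 16 without saline 3 (median 0.61). The smallest p-values were those of the lysosomal gene Cd68 (2.04, adjusted p = 0.169 by edgeR) and the complement gene C1qc (1.05, adjusted p = 0.487). Both were low, Cd68 at 0.299 to 0.635 CPM in saline and 1.51 to 2.72 CPM in MPTP. C1qc was at 0.719 to 2.21 CPM in saline and 1.75 to 3.36 CPM in MPTP. Without saline 3 edgeR called both higher, beside 0.853% of all genes. With all 8 libraries DESeq2 called Cd68 (adjusted p = 0.000657), beside 0.332% of all its genes. Of the endothelial and mural markers 8 of 17 were above 0 (median -0.08), although their sum averaged 46.4 CPM in MPTP and 41.7 CPM in saline. Without saline 3 the direction turned, with 12 of 17 above 0 (median 0.25). Of the dopaminergic markers 3 of 19 were above 0 (median -0.13). Without saline 3 none of the dopaminergic markers was above 0 (median -0.25), 3 were called lower, beside 0.983% of all genes, and in 12 every MPTP library lay below saline 1, 2 and 4, beside 7.61% of all genes tested.

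**Figure D5:**
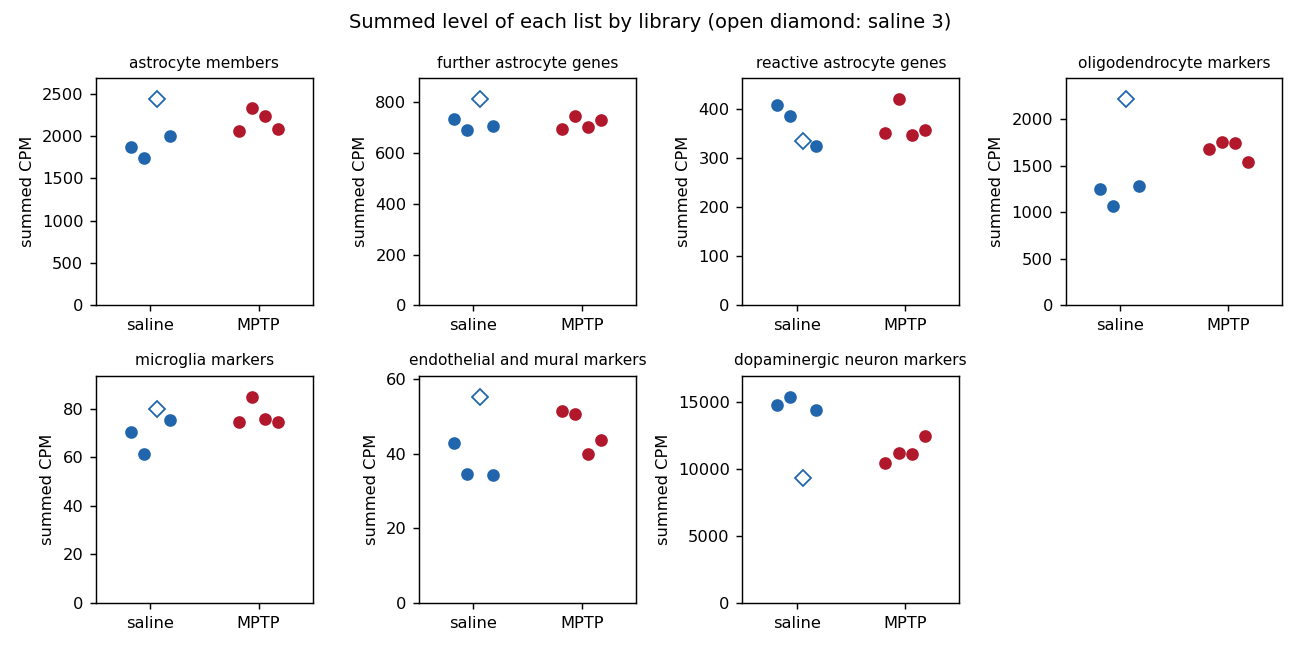
Summed CPM of each gene list in each library, by group, with the open diamond for saline 3. The astrocyte panel (2439 CPM in saline 3) and the oligodendrocyte markers (2218 CPM) are highest in saline 3, and the dopaminergic markers (9361 CPM) are lowest there.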

How the data were processed

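Libraries were made from amplified cDNA by an unstranded kit and read single-end with 2 libraries multiplexed, per the labels' protocols. The labels do not say which libraries were sequenced together. The authors deposited raw counts of each gene in 1 table. The submitters' processing notes name TopHat2 2.0.8 and mm10. The counting tool is not given in the sources used here. Date-like symbols of 27 genes were restored by Entrez identifier. The 90 genes without a symbol held at most 0.0560% of a library.

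Deposited counts were tested with edgeR 4.0.16 in R 4.3.3 (TMM scaling, filterByExpr, robust quasi-likelihood F-test, Benjamini-Hochberg adjustment over the 15999 genes kept, threshold 0.05), after the code was tested on simulated data. SE is the absolute log2 fold change over the root of F. Lengths and overlaps come from GENCODE vM21 (GRCm38, the same assembly as mm10). Replicates differed by more than sampling noise. No label ties them to separate animals, so the p-values reflect spread between samples that may be technical. Alternatives were DESeq2 1.42.0, limma 3.58.1 (voom, sample weights), other scalings and filters, a replicate block and leaving out each library. The members and lists were chosen with earlier results of these data known. All members are named, and from each other list up to 4 genes with the smallest unadjusted p, with Th and Malat1 as context.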

Additional observations from a re-analysis of the deposited data

Results flagged for a closer look

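In 9 of 76 gene-and-group sets of 4 libraries, 1 library lay far from the other 3, where chance alone gives about 1 set in 20. Saline 3 was high for Aqp4 (18.8 CPM, others 9.02 to 9.62), Mlc1 (5.65 CPM, others 1.85 to 2.26), S100b (58.2 CPM, others 25.3 to 30.9) and Sparcl1 (136 CPM, others 61.1 to 72.3). Saline 1 was high for Lcn2 (0.138 CPM, others at 0).

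Within the MPTP group, MPTP 2 was high for Dio2 (6.77 CPM, others 5.17 to 5.35) and MPTP 3 for Slc1a2 (216 CPM, others 196 to 199). MPTP 4 was low for Sox9 (5.79 CPM, others 8.11 to 8.47) and MPTP 1 for Gpr37l1 (11.1 CPM, others 16.5 to 17.3).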

How the results depend on the processing

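Leaving out 1 library moved the count of astrocyte genes called between 0 and 5 and their median log2 fold change between 0.12 (without saline 2) and 0.44 (without saline 3). The 5 calls arose only without saline 3. No alternative with all 8 libraries called an astrocyte gene, and their unadjusted p was under 0.05 in 5 to 13. The share of all genes at that threshold was not computed for the alternatives with all 8 libraries. Over all genes, edgeR called 17, 11 with a mean CPM of at least 5 and 8 to 297 with 1 library left out (8 without MPTP 4, 10 without saline 1, 297 without saline 3), and DESeq2 called 56. The log2 fold change kept its sign in 25 of 37 genes under all 15 alternatives. Of the other 12, with 1 library left out, Slco1c1 ranged from -0.42 to 0.41, Slc39a12 from -0.050 to 0.11, Glul from -0.13 to 0.20, Ndrg2 from -0.090 to 0.090, Sparcl1 from -0.11 to 0.35, Bcan from -0.20 to 0.19, Aldoc from -0.014 to 0.18, Acsbg1 from -0.064 to 0.38, S100b from -0.0043 to 0.47, Sox9 from -0.033 to 0.44, Serpina3n from -0.34 to 0.042 and Gjb6 from -0.064 to 0.30. With voom Slc39a12 was at -0.013 and Slco1c1 at 0.24. The cause was not tested. Replicate numbers did not pair the samples (correlation of same-numbered deviations -0.12 to 0.039). With the replicate block 14 genes and 0 astrocyte genes were called, the astrocyte median was 0.27 and Slco1c1 was at 0.037. Levels per length from the longest transcript put 12 in place of 13 astrocyte genes above the median of all genes.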
